A study of Mus musculus with 12 samples.

Results

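The genes described here encode the proteins of the cytoplasmic ribosome. They were chosen by symbol (names starting with Rpl or Rps and a number, with Rplp0, Rplp1, Rplp2, Rpsa and Fau, and without the Rps6k kinases) and by a mean of at least 10 counts over all samples. The rule gave 85 of the 17922 genes in the table. Of these, 43 encode proteins of the large subunit, 3 the ribosomal stalk, 32 the small subunit and 5 are second copies of a standard gene (Rpl22l1, Rpl36al, Rpl37rt, Rpl39l and Rps27l). The other two, Rpl7l1 and Rps19bp1, match by name and encode an Rpl7-like protein and an Rps19-binding protein. Just inside the minimum were Rpl39l (mean count 18.2), Rpl37rt (64.2) and Rpl22l1 (352), and just outside it were Rpl3l (2.32) and Rpl32l (0.08).

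RNA was sequenced from 12 cultures of mouse rib chondrocytes, the cells that make the cartilage of the rib cage, all of a mixed strain with C57BL/6 dominant and all kept in culture for a day after collagenase digestion. The LDH KO group (3 samples, postnatal day 5) carried Col2-Cre with Ldha fl/fl and Ldhb +/-, so that Ldha was removed by a recombinase driven in cartilage cells and 1 Ldhb allele was left. The Acly KO group (3 samples, E18.5, late in embryonic life) carried Col2-Cre with Acly fl/fl. Each was compared with 3 control samples from littermates of the same age, whose genotype the labels do not give beyond that word. Lactate dehydrogenase interconverts pyruvate and lactate, and ATP citrate lyase makes cytosolic acetyl-CoA. The labels do not say whether samples of 1 group came from separate animals, so p-values measure the spread between these samples, which may be technical.

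Ribosomal proteins assemble with ribosomal RNA in the nucleolus into a small subunit, which reads the mRNA, and a large subunit, which joins amino acids. Most of them are needed in equal numbers, and their mRNAs are among the most abundant in growing cells. Many begin with a C inside a run of pyrimidines, the terminal oligopyrimidine (TOP) motif, through which mTORC1 and LARP1 set how well they are translated. When assembly stalls, free Rpl5 and Rpl11 bind Mdm2 and p53 is stabilised.

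Libraries held between 26362407 and 28154143 expected counts, and each deleted gene was low in its own knockout. Ldha stood at 91.8 ± 7.03 counts per 1000000 counts (CPM, SD, n = 3) in LDH KO and 894 ± 51.3 in its controls, and Acly at 69.9 ± 18.8 in Acly KO and 187 ± 4.69 in its controls. Ldhb, of which 1 allele is left in LDH KO, was at 16.0 ± 1.16 CPM there and 12.4 ± 0.604 in the controls. None of the 8 chondrocyte markers was at 0 in any group. Their summed level was 19190 to 28872 CPM in LDH KO, 10564 to 12234 in its controls, 13379 to 15828 in Acly KO and 7994 to 8710 in its controls. Most of each sum was Col2a1, with means of 19537, 9638, 11195 and 5477 CPM in the same order. At an adjusted p under 0.05 in edgeR, 5 of 7 tested markers were higher in LDH KO, where 2.49% of all genes passed. In Acly KO 1 of 8 was, where 0.136% of all genes passed. Libraries also differed in how levels followed gene length. Acly KO sample 2 stood farthest toward short genes: across 10531 genes its deviation from the mean of its set had a Spearman rho of -0.50 with length and 0.52 with GC content. Acly control samples 2 and 3 leaned the other way, with a rho of 0.45 and 0.29 with length and -0.58 and -0.60 with GC content. The LDH controls differed among themselves as well. Sample 3 had a rho of -0.29 with length and 0.39 with GC content. Samples 1 and 2 had 0.23 and 0.27 with length and -0.29 and -0.40 with GC content. The summed level of 4 Y-linked genes was at most 0.0367 CPM in the LDH KO samples, 93.0, 102 and 0.590 CPM in their controls, 0.0755, 74.3 and 82.8 CPM in Acly KO, and 0.375, 121 and 2.83 CPM in its controls. Neither sex nor the cell makeup was tested for its part in the results below, and in bulk RNA fewer cells of a type and less RNA per cell cannot be told apart.

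The 85 genes took between 7.003% and 9.11% of all expected counts of a library. In LDH KO their share was 8.04%, 8.42% and 7.92% in samples 1 to 3, against 7.43%, 7.003% and 8.09% in the controls. In Acly KO it was 8.07%, 9.11% and 8.17%, against 8.30%, 7.44% and 7.77%. Both knockout groups had the higher mean, and in both comparisons the groups overlapped. LDH KO averaged 8.13% ± 0.258 and its controls 7.51% ± 0.547, Acly KO 8.45% ± 0.573 and its controls 7.84% ± 0.437 (SD, n = 3 each). The highest value, 9.11%, belongs to Acly KO sample 2. The 78 mitochondrial ribosomal protein genes together took 0.353% to 0.427% of the counts.

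**Figure D1:**
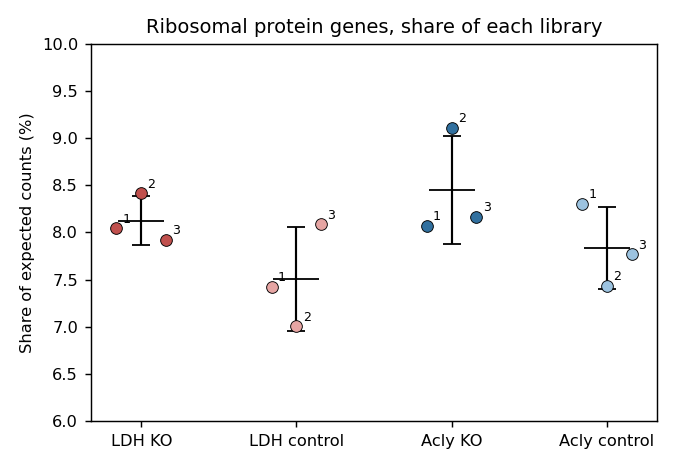
Share of all expected counts of a library (percent, vertical axis from 6 to 10) held by the 85 ribosomal protein genes in each of the 12 samples, with the sample number beside each point and the group mean ± SD as bars. Acly KO sample 2 (9.11%) is the highest and LDH control sample 2 (7.003%) the lowest.

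Per length, in the deposited TPM values (transcripts per 1000000 transcripts), the genes were high and uneven. The median gene had a mean of 2327.6 TPM over the 12 samples, and 71 of 85 had at least 1000 TPM. The highest were Rps26 (11372.7 TPM), Rpl41 (7950.3), Rps2 (7253.3), Rpl35 (6803.2) and Rplp1 (6783.4). Rps26 and Rps2 are small subunit proteins, Rpl41 and Rpl35 belong to the large subunit, and Rplp1 to the stalk that recruits translation factors. The lowest were Rpl39l (1.7 TPM), Rpl37rt (7.3), Rps6 (47.2), Rpl22l1 (55.5) and Rpl7l1 (91.0). Of those 5, only Rps6 is a standard ribosomal protein gene, the small subunit protein phosphorylated downstream of mTORC1, and its reads are described with its copy below. The members are short: the median length implied by the deposited counts and FPKM values was 649 bases, against 2745 bases for all genes, and 83 of 85 were below that value. Their median GC content was 51.2%, against 50.5% for all genes.

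Within a group the spread was of the order of the family medians given below, 0.10 in LDH KO and 0.17 in Acly KO. By library, the members' median log2 deviation was taken from the mean of a set, knockouts and controls together. It ran from 0.005 to 0.104 in LDH KO and from -0.168 to 0.06 in its controls. In Acly KO it ran from -0.007 to 0.207 (sample 2), and in its controls from -0.18 (sample 2) to 0.028. The median within-group SD was 0.128 on the log2 scale, and 80 of 85 genes were below 0.2. The 5 at or above it were Rpl39l (0.773), Rpl29 (0.489), Rps6 (0.470), Rpl37rt (0.309) and Rpl13a (0.257).

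The start sites were searched for runs of C or T, the bases of the TOP motif. RefSeq start sites on GRCm38.p6 were found for 65 of the 85 genes, 76 starts in all. Runs were read on the strand that has the sequence of the RNA. A run of at least 8 bases that are all C or T, touching the 10 bases on either side of the start, was present at 40.8% of these starts, against 14% of all 32851 starts in that table. This measure is wider than the TOP motif, since the run need not include the start. A run of at least 5 such bases that includes the start base was present at 27.6% of members' starts and at 10.1% of all starts. The start base was C at 31.6% of members' starts and at 16.3% of all starts. The windows below are 30 bases long, the start is the 16th base, and capitals mark the longest run of C or T near the start. Where a gene has several starts, the start with the longest run is shown. The start lies inside the capitals in Rps6 and Rps27 and outside them in the other 4 windows. They are shown because they hold 2 standard genes with their copies and a gene whose coding sequence matches that of another row (Rps6). Rpl41 is shown because it has a short run and is the member of lowest adjusted p in the LDH comparison.
Rps6: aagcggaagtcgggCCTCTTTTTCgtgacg
Rps27: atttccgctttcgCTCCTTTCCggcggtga
Rps27l: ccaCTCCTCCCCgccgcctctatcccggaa
Rpl22: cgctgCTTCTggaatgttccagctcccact
Rpl22l1: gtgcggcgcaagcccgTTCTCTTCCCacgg
Rpl41: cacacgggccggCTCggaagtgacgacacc

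On GRCm38.p6 these windows lie at the 5′ ends of their genes. Rps6 is at chr4:86857353-86857382 and Rps27 at chr3:90213634-90213663, both on the minus strand. Rps27l is at chr9:66946071-66946100, Rpl22 at chr4:152324421-152324450 and Rpl22l1 at chr3:28805493-28805522, all on the plus strand. Rpl41 is at chr10:128549154-128549183 on the minus strand. The run is 10 bases long in Rps6 and Rpl22l1, 9 in Rps27 and Rps27l, 5 in Rpl22 and 3 in Rpl41. These are letters of the reference, and neither start site use nor translation was measured.

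LDH KO was compared with its littermate controls at postnatal day 5. The genes lay slightly higher in LDH KO by median, no single one passed the test, and the family's share of counts overlapped between the groups. The members were measured in the same libraries, so counts of them are not counts of independent replicates. Of the 84 members tested (Rpl39l fell under the filter on low counts), 71 had a log2 fold change above 0, against 51.0% of all genes, with a median of 0.10 against 0.005 for all 13321 genes. None of the 84 reached an adjusted p of 0.05 in edgeR, where 2.49% of all genes did. At an unadjusted p under 0.05 there were 16 members, and 19.6% of all genes reached that level. DESeq2 called 6 members, all higher (Rpl23a, Rpl31, Rpl36, Rpl41, Rps29 and Rps3, named from its result), with 7.04% of all genes called, and limma on log2(FPKM + 1) called none, with 1.94% of all genes called.

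The members nearest to the threshold were Rpl41, a very small large subunit protein, and Rps29, a zinc-binding small subunit protein. Rpl41 stood at 1670, 1799 and 1506 CPM in LDH KO and at 1282, 1196 and 1374 CPM in the controls. All 3 knockout samples lay above all 3 controls, and the log2 fold change was 0.37 (SE 0.099, adjusted p = 0.0864). Rps29 stood at 212, 225 and 178 CPM in LDH KO and at 164, 137 and 164 CPM in the controls, again without overlap, with a log2 fold change of 0.41 (SE 0.109, adjusted p = 0.0873). Rpl23a, which lies at the exit of the large subunit's peptide tunnel, had 893, 804 and 673 CPM against 661, 517 and 582 CPM. Its lowest knockout sample was just above its highest control, and its log2 fold change was 0.43 (SE 0.125, adjusted p = 0.102).

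Across the members, 19 were higher in every LDH KO sample than in every control (12.2% of all genes were) and 3 were lower (12.1% of all genes were). The 3 lower ones were Rpl7l1, Rps27l and Rpl35a, which were picked out by this pattern. Rpl7l1 stood at 142, 124 and 128 CPM against 144, 153 and 148 CPM, a log2 fold change of -0.17 (SE 0.077, adjusted p = 0.254). Rps27l, a copy of Rps27 and a p53 target, stood at 95.2, 89.1 and 87.7 CPM against 102, 99.8 and 103 CPM, a log2 fold change of -0.16 (SE 0.070, adjusted p = 0.237). Fau, which encodes a small subunit protein fused to a ubiquitin-like one, had overlapping groups and a log2 fold change of -0.13 (SE 0.10, adjusted p = 0.521).

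By class, the median log2 fold change in LDH KO was 0.12 in the 43 large subunit genes and 0.11 in the 32 small subunit genes. It was 0.05 in the 3 stalk genes, none of which went past 0.074. Of the 4 copies tested, 3 lay below 0, and Rpl37rt lay at 0.48 (SE 0.238, adjusted p = 0.307) from values of 2.26, 2.42 and 3.54 CPM against 2.07, 2.02 and 1.77 CPM. The 4 members on the X chromosome (Rpl10, Rpl36a, Rpl39 and Rps4x) had log2 fold changes between -0.009 and 0.20.

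The median of 0.10 changed when single libraries were left out and when an offset for gene length was used. Without LDH control sample 2 it was 0.038, without LDH control sample 3 it was 0.17, and without LDH KO sample 3 there were 4 members called (Rpl23a, Rpl41, Rps29 and Rps3a1), with 7.91% of all genes called. In the fit of all 12 samples 1 member was called, Rpl41, with 3.06% of all genes called. With an offset for the trend of counts on gene length in each sample it was 0.026 with 56 of 84 genes above 0, and with length and GC content together it was 0.031 with 52 of 84. Members make up 42 of the 341 tested genes of 649 bases or less, so they take part in setting that trend. Fat cell markers summed to 23.0 to 63.1 CPM in LDH KO and 7.90 to 8.28 CPM in the controls, with 5 of 6 tested markers called higher. Osteoblast markers summed to 19.1 to 33.6 CPM against 63.8 to 84.4 CPM, with Mepe at 0 in both groups and Dmp1 at 0 in LDH KO. Their part in the members' values was not tested.

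Acly KO was compared with its littermate controls at E18.5. The genes again lay slightly higher in the knockout by median, with none past the test, and the family's share of counts overlapped between the groups. Here too the members share the same libraries and are not independent replicates. Of 85 members tested, 78 had a log2 fold change above 0, against 49.7% of all genes, with a median of 0.17 against -0.002 for all 13973 genes. None reached an adjusted p of 0.05 in edgeR, where 0.136% of all genes did. At an unadjusted p under 0.05 there were 10 members, and 15.8% of all genes reached that level. DESeq2 called none, with 1.77% of all genes called, and neither did limma on log2(FPKM + 1), with 0.136%.

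The median was 0.20 over the 32 small subunit genes, 0.15 over the 43 large subunit genes and 0.22 over the 3 stalk genes. Rps15, at the head of the small subunit, stood at 1336, 1690 and 1478 CPM in Acly KO and at 1359, 1044 and 1089 CPM in the controls. The groups overlapped through control sample 1, and the log2 fold change was 0.385 (SE 0.135, adjusted p = 0.266). Rps19, the gene most often mutated in Diamond-Blackfan anaemia, had 409, 502 and 438 CPM against 406, 325 and 360 CPM, a log2 fold change of 0.32 (SE 0.120, adjusted p = 0.274). Its groups did not overlap, with knockout sample 1 and control sample 1 nearly level. Rps28, also of the small subunit, was at 448, 569 and 478 CPM against 467, 351 and 373 CPM, a log2 fold change of 0.35 (SE 0.139, adjusted p = 0.296), with overlap through control sample 1.

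In all, 7 members were higher in every Acly KO sample than in every control (9.73% of all genes were) and 1 was lower (12.4% of all genes were). That one was Rpl5, which together with Rpl11 holds a small ribosomal RNA of the large subunit and binds Mdm2 when free. Rpl5 stood at 957, 924 and 875 CPM in Acly KO against 1012, 1001 and 1042 CPM, a log2 fold change of -0.13 (SE 0.085, adjusted p = 0.436). Rpl11, its partner, had 647, 696 and 559 CPM against 617, 529 and 567 CPM, with overlap.

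The ends of the range were held by copies with few reads. Rpl39l, a copy of Rpl39 best known from testis, had 2.05, 1.71 and 0.460 CPM in Acly KO and 1.03, 0.556 and 0.320 CPM in the controls, a log2 fold change of 1.16 (SE 0.584, adjusted p = 0.357). Rpl37rt, a retrotransposed copy of Rpl37, had 1.59, 1.74 and 2.90 CPM against 2.26, 2.67 and 3.14 CPM, a log2 fold change of -0.36 (SE 0.281, adjusted p = 0.516). In both the groups overlapped. Rpl22l1 had 15.6, 13.2 and 12.9 CPM against 16.8, 17.1 and 14.9 CPM, a log2 fold change of -0.21 (SE 0.125, adjusted p = 0.408).

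The median of 0.17 moved when single libraries were left out and when an offset for gene length was used. Without Acly control sample 2 it was 0.117, and without control samples 1 and 3 in turn it was 0.224 and 0.172. Without Acly KO samples 1 and 3 in turn it was 0.208 and 0.215. Without Acly KO sample 2, which has the highest share of these genes and lies farthest toward short genes, it was 0.081 with 65 of 85 genes above 0. With the length offset it was 0.023 with 52 of 85 genes above 0, and with length and GC content together it was -0.012 with 38 of 85. Members make up 42 of the 365 genes of 649 bases or less tested here, so they take part in setting the trend that the offset takes out. Over all genes, the log2 fold change of this comparison had a Spearman rho of -0.31 with length and 0.51 with GC content, against -0.087 and 0.084 in the LDH comparison, as a description across genes, which are not independent replicates. Muscle markers summed to 108 to 250.25 CPM in Acly KO and 225 to 308 CPM in its controls, which overlap, and none of the 8 was called. Fibroblast markers summed to 1361 to 3591 CPM against 3875 to 4550 CPM, without overlap, and all 8 lay below 0 (median -0.432) with none called. Osteoblast markers summed to 101 to 147 CPM against 154 to 180.5 CPM, and macrophage and leukocyte markers to 153 to 169 CPM against 127 to 143 CPM, both without overlap. What part these markers have in the members' values was not tested.

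**Figure D2:**
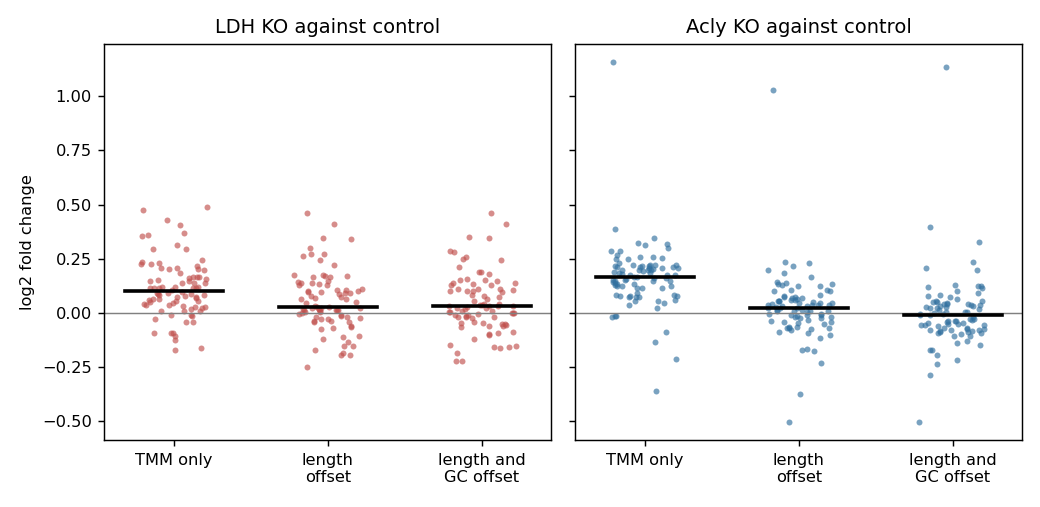
Log2 fold change (vertical axis) of each tested ribosomal protein gene, as points spread sideways at random, in LDH KO (84 genes) and Acly KO (85 genes) against their controls, with TMM scaling only, with an offset for gene length and with an offset for length and GC content. Black bars are medians, which move from 0.10 to 0.03 in LDH KO and from 0.17 to -0.01 in Acly KO, and the single point above 1 is Rpl39l.

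The LDH and Acly comparisons share no samples. Of the 84 members tested in both, 66 were above 0 in both (78.6%), against 29.3% of the 13140 genes tested in both, and 2 were below 0 in both. These are counts of genes from the same libraries, which are not independent replicates. With the length offset 35 of 84 were above 0 in both (41.7%, against 28.6% of all genes), and with length and GC content together 24 of 84 were (28.6%, against 28.1% of all genes). The difference between the LDH and the Acly effect was tested in a fit of all 12 samples. None of 85 members reached an adjusted p of 0.05 in edgeR, where 0.161% of all genes did, and DESeq2 called none, with 1.5% of all genes called. The median difference (LDH effect minus Acly effect) was -0.025, against 0.032 for all genes. At an unadjusted p under 0.05 there were 2 members, with 13.0% of all genes at that level: Fau, with a difference of -0.37 (SE 0.148, adjusted p = 0.323), and Rpl37rt, with 0.85. Rpl39l had the largest negative difference, -1.485 (SE 0.939, adjusted p = 0.506).

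Genes around the ribosome were read from lists, beside all genes, of which 51.0% were above 0 and 2.49% called in LDH KO, and 49.7% and 0.136% in Acly KO. Of 46 ribosome biogenesis genes, which process ribosomal RNA and assemble subunits, 19 were above 0 in LDH KO and 30 in Acly KO, and none passed the test in either (medians -0.05 and 0.07). The lowest p in LDH KO belonged to Bop1, a factor of large subunit assembly, at 0.31 (SE 0.086, adjusted p = 0.0946), and in Acly KO to Mrto4, also of large subunit assembly, at 0.45 (SE 0.10, adjusted p = 0.167). Of 14 RNA polymerase I genes, 10 and 9 were above 0 in LDH KO and Acly KO, with none called. Of 33 translation initiation genes, 14 and 19 were above 0, with none called.

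Of 13 other genes with a TOP motif, all 13 were above 0 in LDH KO (median 0.13) and 12 in Acly KO (median 0.07). With the length offset 11 were above 0 in LDH KO (median 0.12) and 6 in Acly KO (median -0.034). In LDH KO 1 of them was called: Hnrnpa1, an RNA-binding protein, at 479 ± 27.6 CPM against 363 ± 5.38 CPM (SD, n = 3), with a log2 fold change of 0.40 (SE 0.080, adjusted p = 0.0358). The 20 genes of mTORC1 and its control of TOP mRNAs had 8 above 0 in LDH KO and 13 in Acly KO, with none called. Deptor had the lowest p of them in LDH KO, with a log2 fold change of 0.56 (SE 0.139, adjusted p = 0.0666). Of 15 genes of p53 and its targets, 1 was above 0 in LDH KO (median -0.30) and 6 in Acly KO (median -0.03), and none passed the test in either. In LDH KO the lowest p belonged to Ei24 at -0.54 (SE 0.129, adjusted p = 0.0589), then to Perp at -0.71 (SE 0.207, adjusted p = 0.101). Mdm2, the ligase that degrades p53, came next with a log2 fold change of -0.715 (SE 0.244, adjusted p = 0.149). Among the 11 tested genes of the Myc network, 2 were above 0 in LDH KO, and 6 of 12 were in Acly KO, with none called. Of the 78 mitochondrial ribosomal protein genes, 47 were above 0 in LDH KO with 1 called, Mrpl27 at -0.43 (SE 0.092, adjusted p = 0.0427), and 66 were above 0 in Acly KO with none called. With the length offset 42 and 50 of the 78 were above 0.

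Control cells of both sets were compared in the fit of all 12 samples, as Acly controls (E18.5) minus LDH controls (postnatal day 5). Age, mouse line and any run in which a set was processed cannot be told apart. With TMM scaling most members lay slightly below 0, a direction that turns without TMM, and a smaller share of them than of all genes passed the test. Of 85 members, 20 passed an adjusted p of 0.05, 3 higher (29.4% of all genes were called higher) and 17 lower (25.7% of all genes were called lower), so that the members called were 20 of 85 where 55.0% of all genes were called. The median log2 fold change was -0.11 against 0.02 for all genes, and 65 of 85 lay below 0 and 20 above it, where 51.1% of all genes lay above it. Groups did not overlap for 6 members that were higher (34.7% of all genes were) and for 22 that were lower (30.7% of all genes were). At an unadjusted p under 0.05 there were 26 members, with 60.2% of all genes at that level, and DESeq2 called 24 members, with 55.8% of all genes called.

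The direction in this comparison depends on the scaling. Without TMM the median of all 14251 genes moved to 0.19 and that of the members to 0.065, with 13 members called higher (38.5% of all genes were) and 6 lower (14.7% of all genes were). On log2(FPKM + 1) in limma, 12 were called higher (37.9% of all genes were) and 4 lower (14.6% of all genes were). Relative to the median of all genes the members stood at -0.125 with TMM, -0.126 without and -0.066 on log2(FPKM + 1). Of the 20 members called with TMM, 9 were called in the same direction without it, and 7 on log2(FPKM + 1). In all 3 settings Rpl22l1, Rpl34 and Rpl41 were called higher, and Rpl7l1, Rplp0, Rps19bp1 and Rps27l were called lower.

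**Figure D3:**
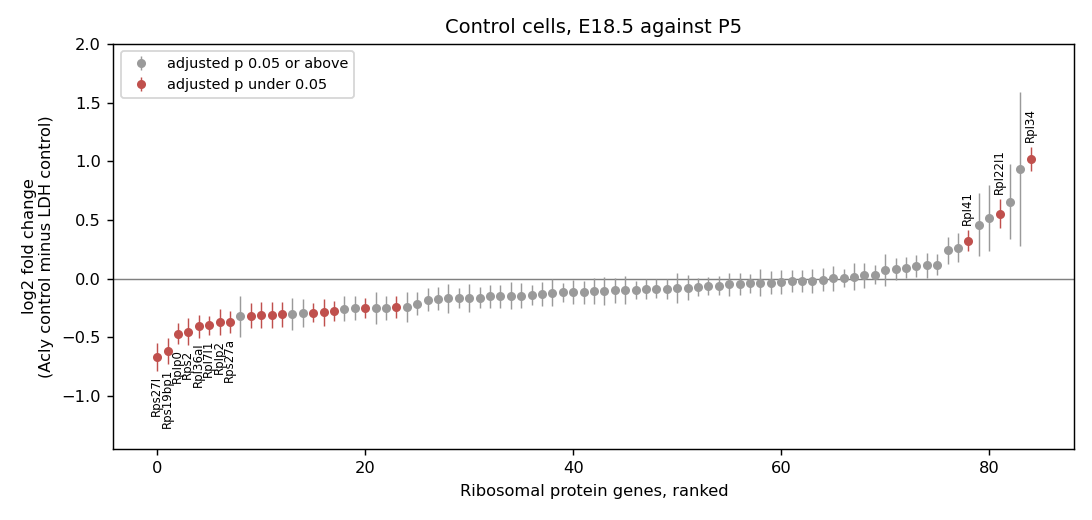
Log2 fold change (vertical axis, Acly control minus LDH control, TMM scaling) of the 85 ribosomal protein genes in rank order, with bars of 1 standard error, and in red those with an adjusted p under 0.05 (the 3 higher ones and the lower ones past -0.36 are named). Most genes lie below 0, and Rpl34 lies highest at 1.02.

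The stalk genes Rplp0, Rplp1 and Rplp2 form the flexible arm that binds elongation factors. Rplp0 stood at 3165, 2853 and 2959 CPM in the Acly controls and at 4074, 3954 and 4397 CPM in the LDH controls, with no overlap. Its log2 fold change was -0.469 (SE 0.089, adjusted p = 0.00064), and without TMM it was -0.295 and still called. Rplp1 was at -0.29 (SE 0.114, adjusted p = 0.0459) and Rplp2 at -0.37 (SE 0.112, adjusted p = 0.0126). Without TMM both stayed below 0, at -0.114 and -0.197, and neither was called.

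The lowest log2 fold changes between the controls belonged to Rps27l and Rps19bp1. Rps27l stood at 69.1, 53.4 and 69.4 CPM in the Acly controls and at 102, 99.8 and 103 CPM in the LDH controls. All embryonic samples were the lower ones, with a log2 fold change of -0.67 (SE 0.120, adjusted p = 0.000427). Rps19bp1 had 40.3, 34.3 and 40.9 CPM against 56.7, 55.8 and 64.4 CPM, a log2 fold change of -0.615 (SE 0.113, adjusted p = 0.000501). The other lower members with a large change were Rps2 (-0.451), Rpl36al (-0.404), Rpl7l1 (-0.399), Rps27a (-0.369) and Rps23 (-0.316). Rps27a encodes a small subunit protein fused to ubiquitin, and Rps2 and Rps23 lie near the mRNA channel and the decoding centre. The remaining lower calls were Rps9, Rpl18, Rpl39, Rpl35a, Rpl10a, Rpl9 and Rpl19, between -0.311 and -0.240.

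Rpl41 and Rpl22l1 were the higher members with no near-identical row in the table. Rpl41 had 1719, 1560 and 1542 CPM in the Acly controls against 1282, 1196 and 1374 CPM, without overlap, and a log2 fold change of 0.32 (SE 0.090, adjusted p = 0.00772). Rpl22l1 had 16.8, 17.1 and 14.9 CPM against 11.2, 10.8 and 11.2 CPM, also without overlap, and a log2 fold change of 0.555 (SE 0.127, adjusted p = 0.0023).

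The same control comparison held much larger differences in markers of other cells. All 8 muscle markers, all 8 endothelial markers and all 8 fibroblast markers were called higher in the Acly controls, where 29.4% of all genes were. Muscle markers summed to 225 to 308 CPM there and to 13.4 to 27.6 CPM in the LDH controls, endothelial markers to 108 to 127 CPM against 17.3 to 21.3 CPM, and fibroblast markers to 3875 to 4550 CPM against 539 to 1069 CPM. Of the 8 chondrocyte markers, 6 were called higher and 1 lower in the Acly controls, although their sum, mostly Col2a1, was lower there. Of the 46 ribosome biogenesis genes 38 were called lower and none higher, with a median of -0.51, and of 15 genes of p53 and its targets 12 were called lower and 1 higher, with a median of -0.797, where 25.7% of all genes were called lower and 29.4% higher. Mdm2 stood at -2.06 (SE 0.241, adjusted p = 1.37e-05) and Myc at -1.02 (SE 0.112, adjusted p = 8.33e-06). The part of these markers in the members' levels was not tested.

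For 12 members the table holds other rows whose transcript is at least 95% identical over at least 200 bases, and reads of such pairs can be split between rows. Rpl37rt, itself a member, is such a row, 99.7% identical to Rpl37 over 344 bases. Its counts were not whole in any of the 12 samples, and it was not summed with Rpl37. Whether its few reads came from Rpl37 was not tested. In 3 pairs the other row held a large part of the pair's reads in some or all samples. Whether those reads came from transcripts of that row or from how reads were assigned was not tested. Their coding sequences (GENCODE M21, longest open reading frame) are aligned below around each difference, with the differing base in capitals and positions counted from 1 at the A of the start codon of the member. Rpl34 and Rpl34-ps1 differ at 2 of 354 coding bases, T132C and C318G, where the first letter is that of Rpl34.
Rpl34 112 to 152: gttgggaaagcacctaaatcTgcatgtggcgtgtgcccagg
Rpl34-ps1 112 to 152: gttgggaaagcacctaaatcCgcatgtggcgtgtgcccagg
Rpl34 298 to 338: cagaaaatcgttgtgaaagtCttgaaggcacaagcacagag
Rpl34-ps1 298 to 338: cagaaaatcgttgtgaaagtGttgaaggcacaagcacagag

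Rpl34, a large subunit protein, had the largest difference between the control groups. It stood at 379, 352 and 404 CPM in the Acly controls and at 189, 172 and 199 CPM in the LDH controls, a log2 fold change of 1.02 (SE 0.104, adjusted p = 4.53e-06). Rpl34-ps1 stood at 178, 163 and 193 CPM in the LDH controls and at 0.670, 0.303 and 0.495 CPM in the Acly controls. It held 48.5% to 49.2% of the pair's reads in all 6 samples of the LDH set, knockout and control, and 0.0859% to 0.243% in all 6 of the Acly set. The pair together gave 367, 335 and 392 CPM in the LDH controls and 379, 352.5 and 405 CPM in the Acly controls, which overlap. With both rows summed, an alternative chosen after seeing the data, the log2 fold change was 0.055 (SE 0.103, adjusted p = 0.670), and this was the only alternative run in which Rpl34 lost its call.

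Rpl29, a large subunit protein, and the pseudogene Gm8210 differ at 3 of 483 coding bases, C72A, C300T and T423C, where the first letter is that of Rpl29.
Rpl29 52 to 92: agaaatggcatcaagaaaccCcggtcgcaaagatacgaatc
Gm8210 52 to 92: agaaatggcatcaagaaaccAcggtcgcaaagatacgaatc
Rpl29 280 to 320: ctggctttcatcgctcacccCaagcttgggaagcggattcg
Gm8210 280 to 320: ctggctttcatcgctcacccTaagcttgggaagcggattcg
Rpl29 403 to 443: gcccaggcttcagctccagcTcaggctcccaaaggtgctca
Gm8210 403 to 443: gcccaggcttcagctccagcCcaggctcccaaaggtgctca

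Rpl29 had the largest positive log2 fold change in LDH KO, 0.49 with an SE of 0.370 (adjusted p = 0.503). Its values were 964, 2001 and 1948 CPM in LDH KO and 827, 735 and 1930 CPM in the controls. Samples of both groups thus fell into a low and a high level. The 3 low samples were those in which Gm8210 held reads: 819 CPM in LDH KO sample 1, and 716 and 622 CPM in LDH control samples 1 and 2, which is 45.8% to 46.4% of the pair. In the other 9 samples Gm8210 held at most 0.485% of the pair. The sum was 1783, 2008 and 1950 CPM in LDH KO and 1543, 1357 and 1939 CPM in the controls, with overlap. Within the LDH set the sum was lowest in the 3 samples in which Gm8210 held reads. Summed, the log2 fold change was 0.245 and its SE fell from 0.370 to 0.132 (adjusted p = 0.341).

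Rps6 and Rps6-ps4, which RefSeq lists as a transcribed pseudogene, are identical over all 750 coding bases, so no stretch is shown. Rps6-ps4 held 97.1% to 99.4% of the pair's reads in every sample. Rps6 itself was listed at 12.3 to 46.7 CPM and Rps6-ps4 at 1439 to 1984 CPM. The level of Rps6 given here is that of the reads listed for its own row. The sum was 1914 ± 72.2 CPM in LDH KO, 1772 ± 53.04 in its controls, 1563 ± 141 in Acly KO and 1592 ± 65.7 in its controls (SD, n = 3). Rpl21 and Gm10045 showed a smaller split of the same kind, with Gm10045 at 1.94% to 2.67% of the pair in LDH KO sample 2 and LDH control samples 1 and 3, and at most 0.103% in the other 9 samples.

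**Figure D4:**
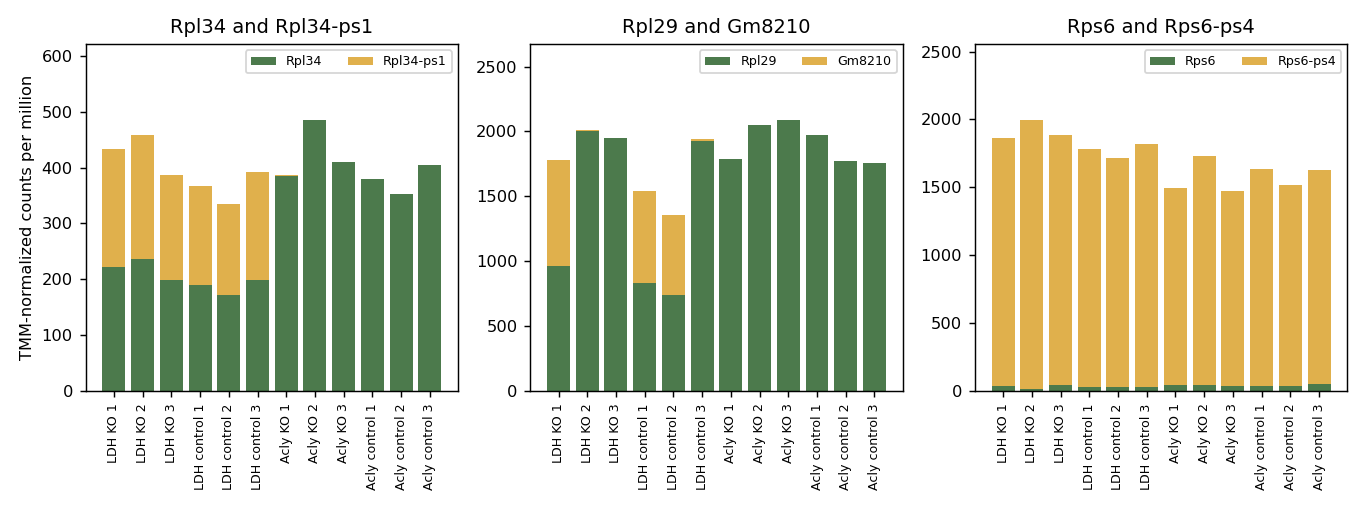
TMM-normalized CPM (vertical axis from 0) of Rpl34, Rpl29 and Rps6 (green) and of the near-identical row of each (yellow), stacked for each of the 12 samples. Rpl34-ps1 holds about as much as Rpl34 in every LDH set sample and almost none in the Acly set, Gm8210 holds reads in LDH KO sample 1 and LDH control samples 1 and 2, and Rps6-ps4 holds nearly all reads of its pair in each sample.

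The copies were also set against the standard gene of each pair. Rpl22l1, which can replace Rpl22 in the ribosome, held 3.75% ± 0.273 of the pair's counts in LDH KO and 4.02% ± 0.147 in its controls, 5.17% ± 0.596 in Acly KO and 6.45% ± 0.657 in its controls (SD, n = 3 each). Every Acly set sample (4.50% to 7.14%) was above every LDH set sample (3.57% to 4.13%). Acly KO (4.50% to 5.63%) lay below its controls (5.83% to 7.14%) without overlap, while the LDH groups overlapped. These shares were not tested, and no count of such ratios over all genes was made. In CPM the Acly groups overlapped for Rpl22l1, which was not called in edgeR (log2 fold change -0.21, adjusted p = 0.408). The lowest share of the Acly set, 4.50%, was that of Acly KO sample 2. GC content was 39.0% for Rpl22l1 and 49.2% for Rpl22, and its part in the share was not tested. By TPM the share was larger, 16.3%, 17.4%, 20.7% and 24.95% in the same order, since Rpl22l1 is listed with a shorter transcript (437 bases, against 2130 for Rpl22).

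Rps27l went the other way between the sets. It held 14.02% ± 0.406 of its pair in LDH KO and 16.5% ± 0.889 in its controls, 10.8% ± 0.505 in Acly KO and 11.8% ± 1.15 in its controls. Every LDH set sample was above every Acly set sample, and LDH KO (13.7% to 14.5%) lay below its controls (15.6% to 17.4%) without overlap. The share was not tested, and Rps27l itself was not called in LDH KO in edgeR (log2 fold change -0.16, adjusted p = 0.237). Rpl36al held 34.8% ± 2.20 and 37.0% ± 1.14 of its pair with Rpl36a in LDH KO and its controls, and 32.4% ± 0.279 and 32.1% ± 0.357 in Acly KO and its controls. Rpl39l held at most 1.203% of its pair with Rpl39 in any sample, and Rpl3l at most 0.0223% of its pair with Rpl3.

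**Figure D5:**
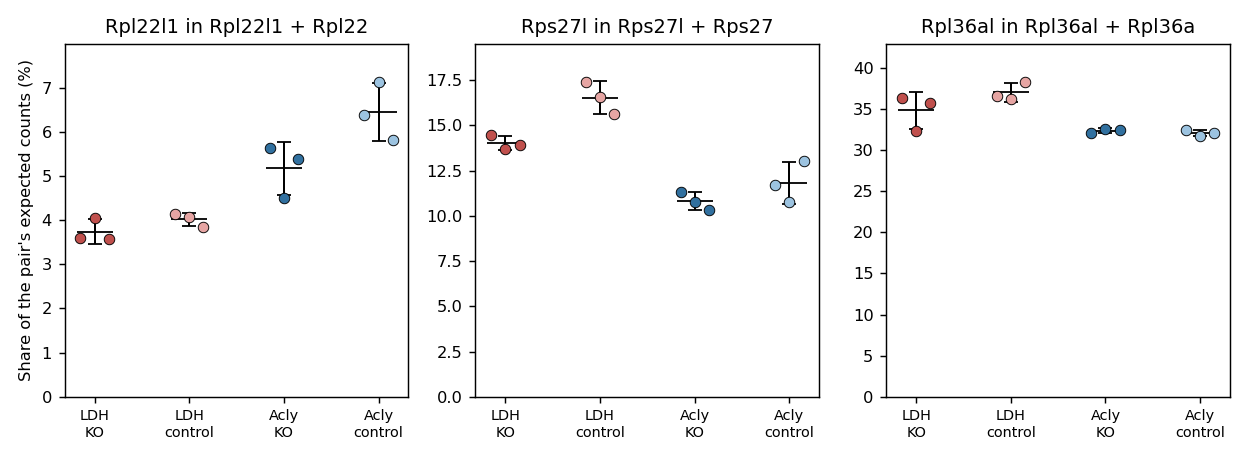
Share of the expected counts of a pair (percent, vertical axis from 0) held by the copies Rpl22l1, Rps27l and Rpl36al in each sample, with the group mean ± SD (n = 3) as bars. Rpl22l1 is highest in the Acly controls (6.45%), and Rps27l in the LDH controls (16.5%).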

How the data were processed

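The authors deposited 1 table with read counts, FPKM and TPM values per gene and sample, per the file headers. How the authors made these expected counts before the table was deposited is not given in the sources used here, and the file headers name no program. Between 7.32% and 8.16% of a sample's counts are not whole. The submitters' processing notes list HISAT2 2.0.4 and mm9, without their role, and the counting program, annotation and use of strand are not given in the sources used here. The reference used for names, transcripts and start sites is GRCm38, so no gene coordinates are given beyond start windows of that build.

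Rounded counts entered edgeR 4.0.16 (R 4.3.3), with TMM, filterByExpr, quasi-likelihood F tests (two-sided) and Benjamini-Hochberg adjustment over all genes tested, with a threshold of 0.05. Each knockout was fitted with its own controls (6 samples). The difference of both effects and the control comparison came from all 12 samples. CPM values are TMM-scaled over 12 samples, and the SE is the log2 fold change divided by the square root of F. Samples held 26362407 to 28154143 counts. Replicates differed by more than counting error (chi-square per gene 11.8 to 55.02), and the SE includes the spread between samples. The labels mention no molecular identifiers. The fit was tested on simulated data.

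Alternatives were DESeq2 1.42.0, limma 3.58.1 on log2(FPKM + 1) or log2(FPKM + 0.1), other scalings, no filter, offsets for length and GC content, a replicate block, and leaving out samples. Length was taken from counts and FPKM, and GC content from GENCODE M21 transcripts (97.1% of genes). Near-identical rows were found with BLAST 2.17.0 and summed as an alternative chosen after seeing the data. Genes were picked for naming, in each comparison, as called members up to 12 by size and the 4 highest and 4 lowest log2 fold changes. The 5 highest and 5 lowest by TPM and all copies were added. From each list the 3 genes of lowest p were picked, and only some of them are given in the text. Members and lists were chosen with earlier results of these data known. Of the listed genes, 0 of 12 snoRNA host RNAs were analysed here.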

Additional observations from a re-analysis of the deposited data

How the results depend on the processing

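Among 38 results on single named genes, 832 alternatives gave 798 with the same direction and side of the threshold, 20 that lost a call, 12 that gained one and 2 that turned. The 2 that turned are Rps6 in Acly KO, at 0.008 without Acly KO sample 3 and 0.041 without Acly control sample 3 (range -0.171 to 0.041 with 1 sample left out). Members called in LDH KO numbered 0 in edgeR, 6 in DESeq2, 1 (Rpl41) in the fit of all 12 samples, and 0 to 4 with 1 sample left out. No member was called in Acly KO or in the difference of both effects under any alternative run. The median of Acly KO was 0.023 with the length offset and -0.012 with length and GC content. The replicate numbers did not pair the samples (correlations of same-numbered deviations 0.142, -0.211 and -0.003 in the LDH set, -0.067, -0.284 and -0.404 in the Acly set). With the number as a replicate block, 0 members were called in LDH KO, Acly KO and the difference, and 13 in place of 20 between the controls. Over all 14251 genes, 6697 in place of 7844 were called between the controls with that block. With the replicate block the Acly KO median was 0.023 with the length offset and -0.011 with length and GC content. Between the controls, the members' median was 0.065 without TMM and 0.063 on log2(FPKM + 1) and log2(FPKM + 0.1). Leaving out 1 sample gave 12 to 26 members called, with 12 without LDH control sample 3 or Acly control sample 2. The calls over all genes moved too, from 6705 of 14398 without Acly control sample 2 to 8361 of 14430 without Acly KO sample 2. The causes were not tested.

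Other denominators moved levels by construction. Without the 100 most abundant other genes the members' share was 10.4%, 9.49%, 10.3% and 9.42% in LDH KO, its controls, Acly KO and its controls, and by TPM it was 22.6%, 21.1%, 23.2% and 22.05%. By TPM, in the same order, Rpl22l1 held 16.3%, 17.4%, 20.7% and 24.95% of its pair and Rps27l 9.001%, 10.7%, 6.87% and 7.51%. By TPM Rpl36al held 35.5%, 30.9% and 30.7% in the LDH controls, Acly KO and its controls, and Rpl39l 0.0834% in the LDH controls. Rpl39l and Rpl37rt had at most 3.54 CPM, a depth that limits their values.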

Other observations

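Rpl13a, a large subunit protein gene, had the widest spread among the abundant members without a near-identical row in the table. It stood at 1512, 2140 and 1848 CPM in LDH KO, 1577, 1585 and 1919 CPM in its controls, 1187, 1832 and 1443 CPM in Acly KO, and 1485, 1072 and 1508 CPM in its controls. Knockout and control samples overlapped in both sets. Rps26, the most abundant member per length, was nearly level in LDH KO, at 2166, 2197 and 2185 CPM, while its controls spread from 1730 to 2521 CPM. Rack1, which sits on the small subunit and lies outside the naming rule, was at 1757 ± 108 CPM in LDH KO, 1618 ± 41.5 in its controls, 1622 ± 169 in Acly KO and 1566 ± 70.3 in its controls (SD, n = 3).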
